A study of Homo sapiens with 3 samples.

Results

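HCCLM3 is a line of human liver cancer cells (hepatocellular carcinoma) that spreads in mice, and small RNA libraries of 2 of its strains were compared here, the strain called subclone2 against the parent. Subclone2 is labelled as able to metastasize to both the lung and the celiac lymph node, and the parent is labelled "low metastasis", although the study's text describes its parental line as highly metastatic. A strain called subclone1, labelled for the lung alone, was the third library of the series and is given only beside the values of the other libraries. All strains were grown in DMEM and their RNA was taken from culture, so the libraries describe cultured tumour cells and not metastases. Each subclone stands for a single derivative of the line, and the labels do not say which clone of the study's text it is. Counts were scaled to a library total of 1e+06 (CPM), and every mature miRNA name whose average of parent and subclone2 reached 10 CPM was described, which kept 187 of the 1921 listed names.

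MicroRNAs are cut from hairpin precursors by Drosha and Dicer and guide Argonaute proteins to messenger RNAs, which are then degraded or translated less. Target choice rests mainly on the seed, the bases near the 5′ end of the mature strand, so miRNAs with the same seed form families with overlapping targets. Many miRNA genes lie side by side and are cut from a common transcript, and either arm of a hairpin (named 5p and 3p) can give a mature strand. In the liver miR-122 is by far the leading miRNA of hepatocytes, the miR-17-92 cluster is activated by MYC, miR-34a and the miR-192/miR-194/miR-215 group are induced by p53, and the miR-200 family restrains the ZEB factors that drive the epithelial to mesenchymal transition.

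Of the 187 names, 156 were matched by exact name to RefSeq mature sequences (GRCh38.p14). A name was called higher or lower in subclone2 when its ratio was at least 2-fold and the exact 95% interval of the ratio excluded 1. This rule called 20 names, 10.7% of those kept, of which 11 were higher (5.88%) and 9 lower (4.81%). The mature strands of 10 names that were higher are shown here because the comparison turns on them, with the seed (bases 2 to 8) in capitals, and hsa-miR-215 was the other name.
hsa-miR-192-5p: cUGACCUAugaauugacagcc
hsa-miR-194-5p: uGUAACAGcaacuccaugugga
hsa-miR-675-5p: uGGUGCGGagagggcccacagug
hsa-miR-146a-5p: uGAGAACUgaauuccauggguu
hsa-miR-10a-5p: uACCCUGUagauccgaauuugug
hsa-miR-1269b: cUGGACUGagccaugcuacugg
hsa-miR-331-3p: gCCCCUGGgccuauccuagaa
hsa-miR-532-3p: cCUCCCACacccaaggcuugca
hsa-miR-200a-3p: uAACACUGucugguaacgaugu
hsa-miR-2682-5p: cAGGCAGUgacuguucagacguc

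The 9 names that were lower are shown in the same way. hsa-miR-17-5p and hsa-miR-20a-5p carry the same seed, and hsa-miR-146b-5p carries the seed of hsa-miR-146a-5p, which lay on the other side of the comparison.
hsa-miR-17-5p: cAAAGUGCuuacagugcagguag
hsa-miR-20a-5p: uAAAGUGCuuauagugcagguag
hsa-miR-19b-3p: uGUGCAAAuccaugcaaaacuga
hsa-miR-92a-1-5p: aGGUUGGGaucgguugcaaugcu
hsa-miR-34a-5p: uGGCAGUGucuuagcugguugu
hsa-miR-15b-3p: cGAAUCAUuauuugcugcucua
hsa-miR-146b-5p: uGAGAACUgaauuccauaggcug
hsa-miR-181a-2-3p: aCCACUGAccguugacuguacc
hsa-miR-4521: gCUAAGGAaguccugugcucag

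The parent library held 7902438 counts and the subclone2 library 4568075, a 1.73-fold difference in depth. At these depths 10 CPM stood for 79.0 counts in the parent and 45.7 in subclone2, and a count of 0 allows up to 0.380 and 0.657 CPM. There was 1 library per group, so no spread between replicates could be measured, no test was made, and every call compares these libraries only. Intervals are exact (Poisson for a CPM, conditional binomial for a ratio) and cover the counting error of reads alone. The tables carry no molecular identifiers, so repeated reads of the same molecule cannot be recognized and the intervals may be too narrow. Adapter ligation favours some RNA ends over others, so a ratio compares the same miRNA between libraries, while levels set beside those of other miRNAs describe read counts. In a bulk library fewer cells with a miRNA and less of it per cell cannot be told apart.

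Most of the small RNA was shared closely by both strains, and most of the called names were at low and middle levels, with miR-192-5p the exception among the abundant ones. Of the 187 names, 137 (73.3%) were within 1.5-fold. The log2 ratio of subclone2 over parent had a median of −0.15, and 120 names lay below a ratio of 1 and 67 above it. With TMM factors (edgeR) in place of the library total the median moved to 0.02, so ratios are best read against −0.15 rather than 0. Among the 100 names below 100 CPM 15 were called, against 4 of the 55 names from 100 to 1000 CPM and 1 of the 32 names above that.

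**Figure D1:**
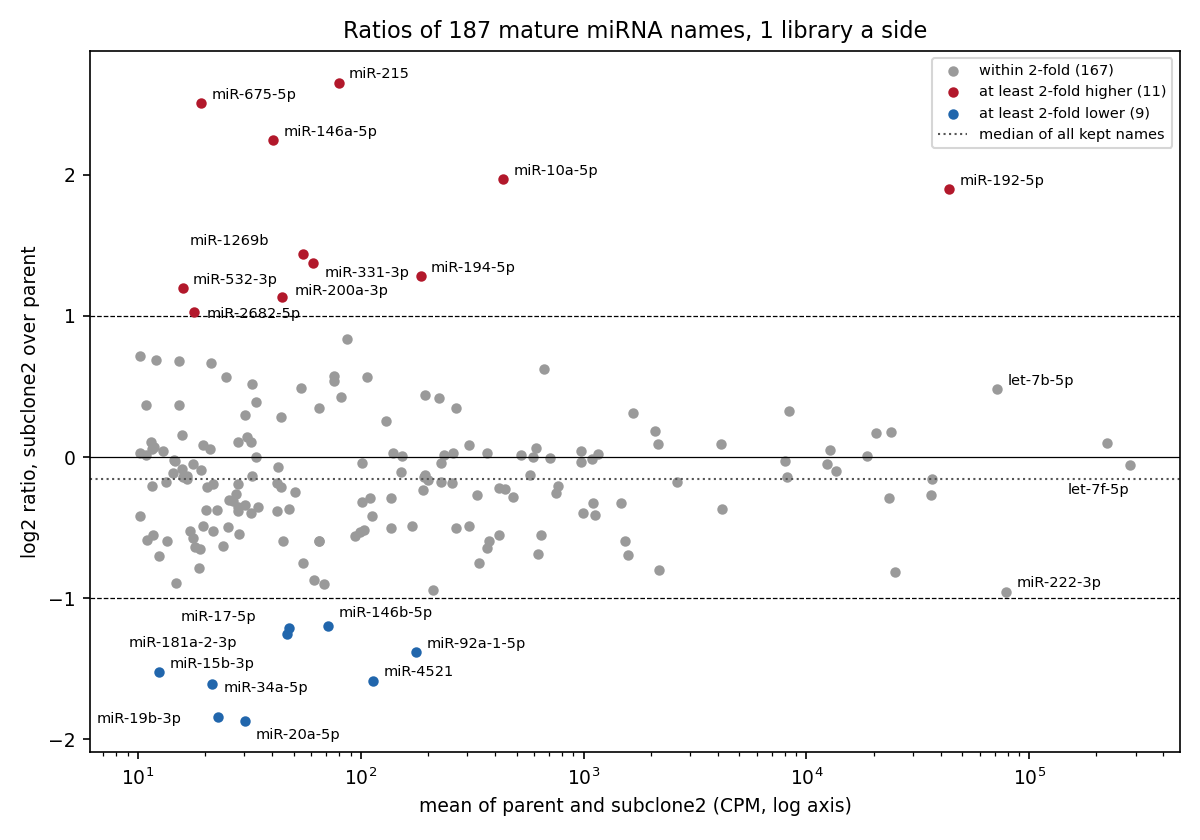
Log2 ratio of subclone2 over parent against the mean level of the 2 libraries in CPM (log axis) for the 187 kept names, 1 point a name. Dashed lines mark 2-fold, the dotted line the median of −0.15; 11 names lie at or above 2-fold, 9 at or below it, and miR-192-5p is the single called name above 1000 CPM.

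The most abundant names were dominated by let-7. hsa-let-7f-5p held 288886 CPM in the parent and 278487 CPM in subclone2. For hsa-let-7a-5p the levels were 215023 and 230781 CPM (log2 0.10). Among the other let-7 names of the 10 most abundant, hsa-let-7b-5p was at 59975 and 83619 CPM (log2 0.48), hsa-let-7i-5p at 38363 and 34493 CPM (log2 −0.15), and hsa-let-7g-5p at 25765 and 21088 CPM (log2 −0.29). These miRNAs repress RAS, HMGA2 and LIN28 transcripts. None was called, and since each of these names lies 1 or 2 substitutions from its nearest let-7 relative, the split of reads among them is uncertain.

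Outside let-7, 3 of the 5 other names among the 10 most abundant differed by more than any let-7 name given here. hsa-miR-222-3p, which represses the cell cycle inhibitor CDKN1B, held 104085 CPM in the parent and 53755 CPM in subclone2, a log2 ratio of −0.95 (−0.96 to −0.95), just short of 2-fold. hsa-miR-221-3p from the same locus stood at 31716 and 18030 CPM (log2 −0.81). hsa-miR-192-5p went the other way, at 18528 and 69068 CPM (log2 1.90), and its rank by level was 12 in the parent and 4 in subclone2. It made up nearly all of the miR-192/miR-194/miR-215 group, which summed to 18663 CPM in the parent and 69482 CPM in subclone2. The group was at 60585 CPM in subclone1, so it was not particular to subclone2. hsa-miR-21-5p, known for repressing PDCD4, was at 39672 and 32945 CPM (log2 −0.27), and hsa-miR-320a at 22572 and 25541 CPM (log2 0.18).

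All 3 kept names of the p53-induced miR-192/miR-194/miR-215 group were higher in subclone2, against 5.88% of all kept names. hsa-miR-215 had 172 counts in the parent and 627 in subclone2, or 21.8 and 137 CPM (log2 2.65, 2.41 to 2.91). No sequence was matched to miR-215, so its likeness to the far more abundant miR-192-5p was not checked. How surely reads were assigned to miR-215 is therefore not known. hsa-miR-194-5p had 853 and 1201 counts, or 108 and 263 CPM (log2 1.28, 1.16 to 1.41). Subclone1 held 59.1 CPM of miR-215 and 271 CPM of miR-194-5p, so for miR-194-5p both subclones lay above the parent at similar levels, while miR-215 in subclone1 lay between the other libraries. MIR192 (chr11:64891137-64891246, minus strand) and MIR194-2 (chr11:64891355-64891439, minus strand) lie in exons of the non-coding gene MIR194-2HG, and miR-194-5p also comes from MIR194-1 (chr1:220118157-220118241, minus strand). Positions here and below are those of RefSeq on GRCh38.p14, and host genes are those of GENCODE release 29.

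Other names that were higher came from single genes with different hosts. hsa-miR-675-5p, cut from an exon of the imprinted non-coding RNA H19 (MIR675, chr11:1996759-1996831, minus strand), had 45 counts in the parent and 149 in subclone2, or 5.69 and 32.6 CPM (log2 2.51, 2.03 to 3.03). The opposite strand hsa-miR-675-3p was listed at 0 counts in the parent, 7 in subclone2 and 4 in subclone1. hsa-miR-10a-5p, whose gene lies in the HOXB cluster (MIR10A, chr17:48579838-48579947, minus strand), had 1405 and 3178 counts, or 178 and 696 CPM (log2 1.97, 1.88 to 2.06). Subclone1 was at 27.4 CPM for miR-675-5p and 613 CPM for miR-10a-5p, nearer to subclone2 than to the parent in both cases.

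The miR-146 pair split. hsa-miR-146a-5p, which is induced by NF-kB and represses TRAF6 and IRAK1, had 111 counts in the parent and 305 in subclone2, or 14.05 and 66.8 CPM (log2 2.24, 1.93 to 2.58). hsa-miR-146b-5p had 782 and 197 counts, or 98.96 and 43.1 CPM (log2 −1.20, −1.43 to −0.97). The pair has the same seed, 2 substitutions between the mature strands and 17 consecutive bases in common, so the assignment of reads between them is uncertain. Their summed level was 113 CPM in the parent and 109.9 CPM in subclone2 (log2 −0.04, −0.20 to 0.12), and the share of the sum that was miR-146a-5p differed while the sum did not differ beyond counting error. MIR146A (chr5:160485352-160485450, plus strand) lies in an exon of MIR3142HG, and MIR146B (chr10:102436512-102436584, plus strand) has no host gene in this annotation.

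hsa-miR-200a-3p, a ZEB1 and ZEB2 repressor, had 220 counts in the parent and 279 in subclone2, or 27.8 and 61.1 CPM (log2 1.13, 0.87 to 1.395). The other kept members of its family were not called, with hsa-miR-200b-3p at 16.5 and 26.05 CPM (log2 0.66, 0.29 to 1.03) and hsa-miR-200c-3p at 26.6 and 38.1 CPM (log2 0.52, 0.22 to 0.82). Summed over detected members the family held 79.6 CPM in the parent, 141 CPM in subclone2 and 119.6 CPM in subclone1. All these levels were low beside the most abundant miRNAs of the libraries.

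The remaining names that were higher are less well known. hsa-miR-1269b (MIR1269B, chr17:12917268-12917342, minus strand, no host gene) had 233 counts in the parent and 366 in subclone2, or 29.5 and 80.1 CPM (log2 1.44, 1.20 to 1.69). hsa-miR-331-3p had 267 and 401 counts, or 33.8 and 87.8 CPM (log2 1.38, 1.15 to 1.61), and it stood highest in subclone1, at 202 CPM. hsa-miR-2682-5p, from an exon of the non-coding gene MIR137HG (MIR2682, chr1:98045242-98045351, minus strand), had 93 and 110 counts, or 11.8 and 24.1 CPM (log2 1.03, 0.62 to 1.45). It was the called name nearest to 2-fold, and with the parent counts thinned to the depth of subclone2 its log2 ratio was 0.92 and it was no longer called.

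**Figure D2:**
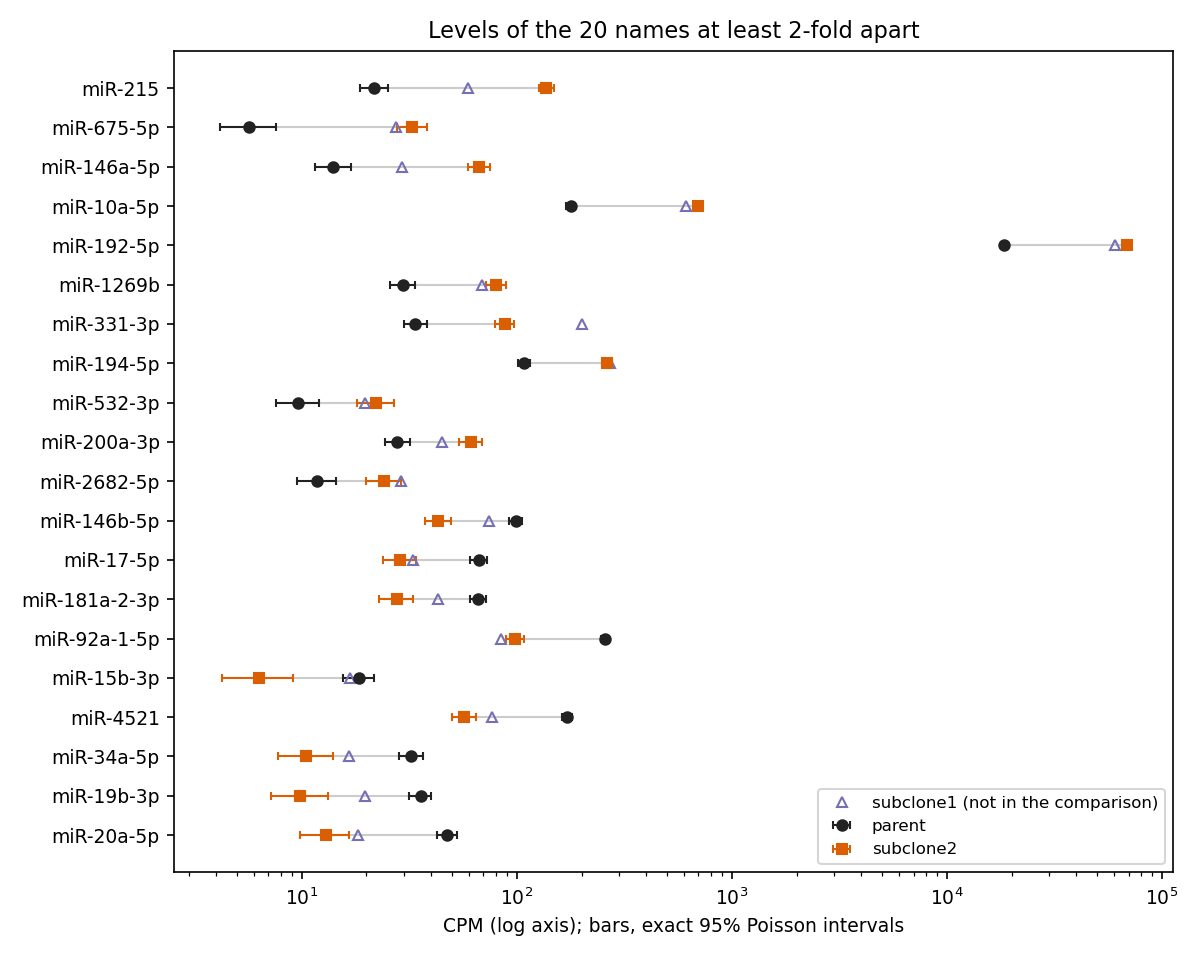
Level in CPM (log axis) of the 20 called names in parent (circles) and subclone2 (squares), with exact 95% Poisson intervals, and in subclone1 (triangles, not part of the comparison). The parent and subclone2 intervals do not overlap for any of the 20 names. The names were picked from these same counts by ratio and interval, so this adds no support to the calls.

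Among the lower names the miR-17-92 cluster, a MYC-activated group that represses BIM and CDKN1A transcripts, held 4 of the 9. hsa-miR-20a-5p had 375 counts in the parent and 59 in subclone2, or 47.5 and 12.9 CPM (log2 −1.87). hsa-miR-19b-3p had 282 and 45 counts, or 35.7 and 9.85 CPM (log2 −1.84). hsa-miR-92a-1-5p, the strand opposite hsa-miR-92a-3p, had 2028 and 449 counts, or 257 and 98.3 CPM (log2 −1.38). The share of lower calls over all kept names was 4.81%, against these 4 of the 6 kept names of the cluster.

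The fourth name was hsa-miR-17-5p, whose counts were 525 and 131, or 66.4 and 28.7 CPM (log2 −1.21). The uncalled members were hsa-miR-17-3p, at 23.9 and 13.8 CPM (log2 −0.79), and hsa-miR-92a-3p, the most abundant of them, at 1286 and 967 CPM (log2 −0.41). The ratios within the cluster therefore spanned 1.46 on the log2 scale although the hairpins lie within chr13:91350605-91351391 (plus strand) in exons of MIR17HG. The names hsa-miR-19b-3p and hsa-miR-92a-3p can also come from chromosome X copies, MIR19B2 and MIR92A2. Subclone1 held 18.2 CPM of miR-20a-5p, 19.6 CPM of miR-19b-3p, 84.6 CPM of miR-92a-1-5p and 32.8 CPM of miR-17-5p, each below the parent.

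Called names outside that cluster included hsa-miR-34a-5p, a direct p53 target (MIR34A, chr1:9151668-9151777, minus strand, in an exon of MIR34AHG), whose counts were 255 and 48, or 32.3 and 10.5 CPM (log2 −1.61, −2.10 to −1.17). hsa-miR-15b-3p, the minor strand of MIR15B (chr3:160404588-160404685, plus strand, in an intron of SMC4), had 146 and 29 counts, or 18.5 and 6.35 CPM (log2 −1.52, −2.17 to −0.96), while subclone1 stayed near the parent at 16.8 CPM. hsa-miR-4521 (MIR4521, chr17:8186945-8187004, plus strand, no host gene) had 1351 and 260 counts, or 171 and 56.9 CPM (log2 −1.58, −1.78 to −1.39). Among p53-linked names, miR-34a-5p was thus lower while the miR-192 group was higher.

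hsa-miR-181a-2-3p, the minor strand of 1 of the 2 genes of miR-181a, had 522 counts in the parent and 126 in subclone2, or 66.1 and 27.6 CPM (log2 −1.26, −1.55 to −0.98). Its gene is MIR181A2 (chr9:124692442-124692551, plus strand, in an intron of MIR181A2HG). The corresponding strand of the other gene, hsa-miR-181a-3p from MIR181A1 (chr1:198859044-198859153, minus strand), was at 29.4 and 32.4 CPM (log2 0.14, −0.17 to 0.45). hsa-miR-181a-5p, which both genes give, was at 1848 and 1224 CPM (log2 −0.59). Each 3p strand has a single gene, and the strand from chromosome 9 was lower in subclone2 while the interval of the strand from chromosome 1 held a ratio of 1. Whether the genes themselves differed was not tested.

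The whole interval lay beyond 2-fold for 8 of the higher and 5 of the lower names. A ratio of at least 4-fold was reached by 3 higher names, miR-215, miR-675-5p and miR-146a-5p, and by no lower name. Just outside the 2-fold limit were hsa-miR-1269a (log2 0.83) and hsa-miR-574-3p (log2 0.72) on the higher side and hsa-miR-222-3p (log2 −0.95) and hsa-miR-106b-5p (log2 −0.94) on the lower. Just inside it were miR-2682-5p and hsa-miR-200a-3p on the higher side and miR-146b-5p and miR-17-5p on the lower. The nearest names above the minimum of 10 CPM were hsa-miR-1292 (mean 10.3 CPM), hsa-miR-574-3p (10.2 CPM) and hsa-miR-589-5p (10.2 CPM), and the nearest below were hsa-miR-1254 (9.95 CPM), hsa-miR-1306-3p (9.92 CPM) and hsa-miR-505-3p (9.58 CPM).

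Sorting the kept, matched names by seed gave 117 seeds, of which 25 were shared by at least 2 names. By summed counts 15 seeds (12.8%) were called, 9 higher and 6 lower, and a single shared seed was among them. This was UGGACUG, carried by hsa-miR-1269a and hsa-miR-1269b, at 92.0 CPM in the parent and 192 CPM in subclone2 (log2 1.06, 0.91 to 1.20). Their sequences differ by 1 substitution, so the sum is surer than the split. hsa-miR-1269a alone was at 62.5 and 111 CPM (log2 0.83, 0.65 to 1.02), and its gene lies on another chromosome (MIR1269A, chr4:66276824-66276928, plus strand). The strands are set out for comparison with their seeds in capitals.
hsa-miR-1269a: cUGGACUGagccgugcuacugg
hsa-miR-1269b: cUGGACUGagccaugcuacugg

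The 5 matched seeds with the most counts were uneven in how far they differed. These sums hold only names matched to a sequence, so hsa-let-7c, hsa-miR-98, hsa-miR-320a and hsa-miR-215 are not in them. GAGGUAG of 7 matched let-7 names took 64.9% of the parent counts and 66.9% of the subclone2 counts. GCUACAU of miR-221-3p and miR-222-3p took 13.6% and 7.18% (log2 −0.92), the largest difference in share among these seeds. UGACCUA of miR-192-5p took 1.85% and 6.91%. Shares of a library add to a fixed total, so these seeds do not vary independently. AGCUUAU of miR-21-5p took 3.97% and 3.29%, and GCAGCAU of miR-103a-3p and miR-107 took 2.22% and 2.11%.

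The seed AAAGUGC joins names of 2 genomic clusters, hsa-miR-17-5p and hsa-miR-20a-5p on chromosome 13 with hsa-miR-93-5p and hsa-miR-106b-5p on chromosome 7. Its sum was 1521 CPM in the parent and 1046 CPM in subclone2 (log2 −0.54, −0.59 to −0.49). hsa-miR-93-5p, at 1129 and 860 CPM (log2 −0.39), made up most of it, and hsa-miR-106b-5p was at 278 and 145 CPM (log2 −0.94, −1.07 to −0.81). The 2 chromosome 13 members had the lowest ratios of the 4, and their strands differ from the others after the seed.
hsa-miR-93-5p: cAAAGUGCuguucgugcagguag
hsa-miR-106b-5p: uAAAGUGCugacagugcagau

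Of the 187 kept names, 112 belonged to a family or cluster list and 75 to none. The lists were matched by name stem and take both arms, so the names of a list need not have the same seed. Among lists with at least 3 kept names, cluster and family medians ran from −1.30 for miR-17-92 to 1.90 for miR-192/miR-194/miR-215, beside −0.15 over all kept names. All 10 kept let-7 names lay within 2-fold with a median of −0.09, and the direction of that list depended on the scaling, with 4 names above a ratio of 1 by library total and 8 with TMM factors. For the 2 clusters of miR-23, miR-27 and miR-24 the median was 0.02 over 8 names, 5 of them above 1 by library total and all 8 with TMM factors, and the most abundant by the mean of both libraries was hsa-miR-27a-3p (963 and 992 CPM), whose split from hsa-miR-27b-3p (984 and 961 CPM) is uncertain, as they share 18 bases. The cluster of miR-106b, miR-93 and miR-25, hosted by the replication gene MCM7, had a median of −0.33 with 0 of 5 names called, and all 5 lay below 1 by library total but 4 with TMM and 3 with median-of-ratios factors.

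The miR-221/miR-222 cluster had a median of −0.81 over 3 names and lay below 1 under every scaling tried, with hsa-miR-221-5p at 2756 and 1585 CPM (log2 −0.80). The miR-320 family, whose founding member is made without Drosha, had 4 names above 1 under every scaling, from log2 0.18 for miR-320a to 0.35 for hsa-miR-320c (236 and 299.5 CPM). The strands of hsa-miR-320b, hsa-miR-320c and hsa-miR-320d differ only near the 3′ end, so the split of reads among them is uncertain. No sequence was matched to miR-320a, so its likeness to them was not checked. The miR-15/miR-16/miR-195 list, whose shared seed AGCAGCA is that of the family known for repressing BCL2, had 4 names below 1 under every scaling. Of these hsa-miR-15b-3p, a minor strand with another seed, was called. The 3 names with the seed AGCAGCA were not called, and their sum was at log2 −0.48 (−0.57 to −0.39). The most abundant, hsa-miR-16-5p, was at 314 and 221 CPM (log2 −0.50). The list of miR-26 and miR-101, which repress EZH2 but have different seeds, had 3 names below 1 under every scaling. Of these hsa-miR-101-3p was at 1230 and 979 CPM (log2 −0.33) and hsa-miR-26a-5p at 451 and 299 CPM (log2 −0.59).

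The miR-30 family had a median of 0.09 over 7 names but a wide spread. hsa-miR-30a-5p was at 523 CPM in the parent and 805 CPM in subclone2 (log2 0.62, 0.56 to 0.69), hsa-miR-30d-5p at 2085 and 2220 CPM (log2 0.09), and hsa-miR-30e-3p at 19.2 and 10.3 CPM (log2 −0.89, −1.41 to −0.42). The miR-181 list likewise ran from −0.59 for hsa-miR-181a-5p to 0.42 for hsa-miR-181d (192 and 256 CPM). Matching by name stem left hsa-miR-181a-2-3p, called lower (log2 −1.26), out of that list. The collagen-repressing miR-29 family was nearly level, with hsa-miR-29a-3p at 18711 and 18786 CPM (log2 0.01) and hsa-miR-29b-3p at 481 and 411 CPM (log2 −0.23).

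Smaller differences were spread over 5 further lists, in which 0 names were called. The miR-99/miR-100/miR-125 names, which do not all have the same seed, ran from −0.69 for the most abundant, hsa-miR-99b-5p (773 and 480 CPM), to 0.03 for hsa-miR-125b-5p. The miR-193/miR-365 names ran from −0.60 for hsa-miR-365a-3p to 0.39 for hsa-miR-193a-3p (29.5 and 38.5 CPM), with hsa-miR-193b-5p the most abundant at 528 and 434 CPM. The sensory-organ cluster miR-183/miR-96/miR-182 had a median of −0.19 by library total, with all 3 names below 1, 1 of which lay above 1 with TMM factors. The miR-191/miR-425 names ran from −0.40 for hsa-miR-425-5p to 0.06 for hsa-miR-425-3p, with hsa-miR-191-5p at 4703 and 3645 CPM (log2 −0.37). The miR-151 and miR-28 names ran from −0.57 for hsa-miR-151b to 0.03 for hsa-miR-151a-5p, and hsa-miR-151a-3p was level at 592 and 592 CPM.

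Several lists had only 1 or 2 kept names. hsa-miR-378a-3p was at 424 CPM in the parent and 252 CPM in subclone2 (log2 −0.75, −0.85 to −0.65). hsa-miR-152, a DNMT1 repressor, was at 44.9 and 63.05 CPM (log2 0.49, 0.26 to 0.72), and its relative hsa-miR-148b-3p at 150 and 123 CPM (log2 −0.29). The hypoxia-induced hsa-miR-210 was at 23.3 and 20.4 CPM (log2 −0.19, −0.57 to 0.17), within counting error, and at 56.8 CPM in subclone1. hsa-miR-103a-3p (log2 −0.10) and hsa-miR-107 (log2 −0.03) both lay below 1 by library total and above it with TMM factors.

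hsa-miR-130b-3p had a log2 ratio of −0.37 and hsa-miR-301a-5p of −0.02, and the latter lay within counting error. hsa-miR-22-3p stood at −0.04 and hsa-miR-22-5p at −0.35. hsa-miR-21-3p, the minor strand of miR-21, was at 21.9 and 14.01 CPM (log2 −0.64, −1.08 to −0.22). None of these was called.

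**Figure D3:**
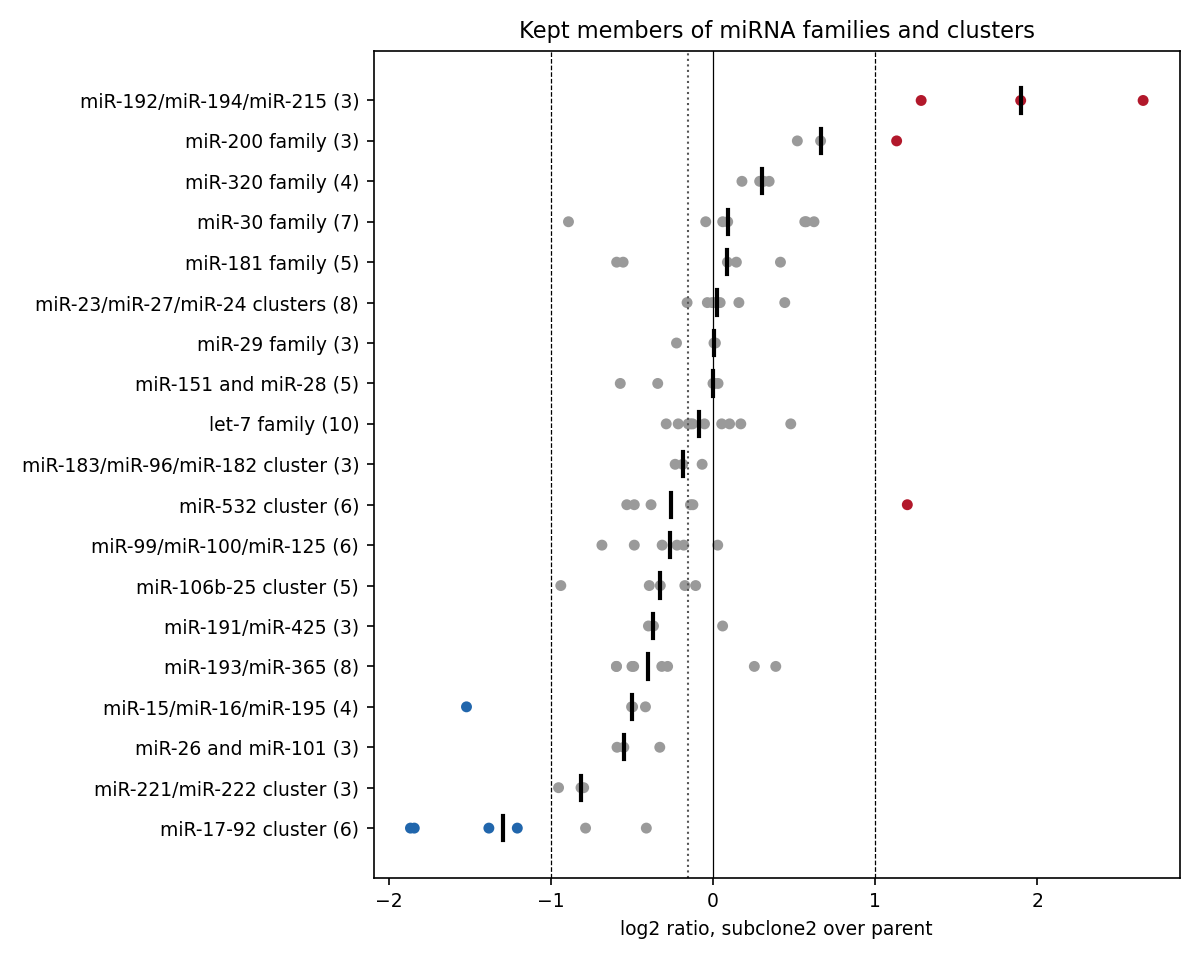
Log2 ratio of subclone2 over parent for each kept member of the 19 families and clusters with at least 3 kept names (number in brackets), 1 point a name and a black bar for the median. Lists were matched by name stem, so the called hsa-miR-181a-2-3p is not shown. Red and blue points are the called names; by library total the medians run from −1.30 for miR-17-92 to 1.90 for miR-192/miR-194/miR-215, and the let-7 and miR-23/miR-27/miR-24 names shift to mostly or wholly above 0 with TMM factors.

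Lists of miRNAs linked to a regulator, which share members with the families, were counted in the same way, beside 5.88% higher and 4.81% lower over all kept names. Of 5 kept p53-linked names 3 were higher and 1 lower. Of 11 kept MYC-activated names 4 were lower and 0 higher, all 4 from miR-17-92. Of 28 kept MYC-repressed names 1 was higher (miR-146a-5p) and 1 lower (miR-34a-5p), with a median of −0.02 by library total (13 above 1, and 18 with TMM factors). Of 10 kept metastasis-linked names 1 was higher (miR-200a-3p) and 1 lower (miR-34a-5p), and of 4 NF-kB-induced names 1 was higher and 1 lower, the miR-146 pair.

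Names from the same stretch of a chromosome were compared next, using the 121 names with a single hairpin gene whose position was available. The 5 such names on chromosome 13 had a median of −1.21, and 3 were called lower (4.81% over all kept names), all of them miR-17-92 names already counted. They came from MIR17HG and, for hsa-miR-15a-5p (log2 −0.50), from DLEU2. The 4 names on chromosome 11 had a median of 0.84 and included miR-192-5p and miR-675-5p, which lie far apart. The 3 names placed on chromosome 4, hsa-miR-1269a, hsa-miR-574-3p and hsa-miR-574-5p, all lay above 1 (log2 0.83, 0.72 and 0.35) without a call. Single-gene names without a position, such as hsa-miR-331-3p (log2 1.38) and hsa-miR-1255a (log2 −0.55, −0.89 to −0.22), are not in these counts. The direction given for a chromosome can therefore be incomplete.

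On chromosome 6, the strands of neighbouring genes in introns of LINC00472 had like ratios. hsa-miR-30a-5p (log2 0.62) and hsa-miR-30a-3p (61.0 and 90.8 CPM, log2 0.57) come from MIR30A (chr6:71403551-71403621, minus strand), and hsa-miR-30c-2-3p (61.8 and 89.8 CPM, log2 0.54) from MIR30C2 (chr6:71376960-71377031, minus strand). On chromosome 1 the related gene MIR30E, in an intron of NFYC, gave hsa-miR-30e-5p (102 and 99.2 CPM, log2 −0.05) and hsa-miR-30e-3p (log2 −0.89). The 3p strands of MIR30A and MIR30E share a seed and 17 consecutive bases and differ by 1 substitution, so their split is uncertain, and they are shown for that reason.
hsa-miR-30a-3p: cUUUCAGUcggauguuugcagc
hsa-miR-30e-3p: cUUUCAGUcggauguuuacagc

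The genes of miR-365 gave a comparable case. hsa-miR-365a-5p, whose gene lies beside MIR193B in introns of MIR193BHG (MIR365A, chr16:14309285-14309371, plus strand), was at 160 CPM in the parent and 113 CPM in subclone2 (log2 −0.50, −0.65 to −0.35). hsa-miR-365b-5p from MIR365B (chr17:31575411-31575521, plus strand) was at 118 and 141 CPM (log2 0.25, 0.11 to 0.40). The intervals of these ratios do not overlap. The 3p strands have the same sequence and the same 618 and 236 counts in the tables, so they cannot be assigned to either gene. The other names of the chromosome 16 locus, hsa-miR-193b-3p (log2 −0.49) and hsa-miR-193b-5p (log2 −0.28), lay on the side of hsa-miR-365a-5p.
hsa-miR-365a-5p: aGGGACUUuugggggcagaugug
hsa-miR-365b-5p: aGGGACUUucaggggcagcugu

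Names from introns of the X-linked non-coding gene FTX all had ratios below 1, but not all beyond counting error. hsa-miR-374b-5p was at 88.96 CPM in the parent and 47.7 CPM in subclone2 (log2 −0.90, −1.12 to −0.68), and hsa-miR-374a-3p at log2 −0.56 (−0.74 to −0.38). The intervals of hsa-miR-374b-3p (log2 −0.21, −0.61 to 0.16) and hsa-miR-421 (log2 −0.37, −0.78 to 0.01) held a ratio of 1. hsa-miR-374a-5p stood at 79.97 and 43.6 CPM (log2 −0.87, −1.11 to −0.64). Among the single-gene names with a position, the median differed little by host class. The medians were −0.19 for names without a host, −0.18 for non-coding hosts and −0.18 for protein-coding hosts. The higher and lower calls were 1 and 2 of the 13 names without a host. They were 4 and 5 of 43 for non-coding hosts and 2 and 1 of 65 for protein-coding hosts. Over all kept names the shares were 5.88% and 4.81%.

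Both arms were kept for 32 miRNAs, and the balance between the arms differed beyond counting error for 16 of them. By the interval of the difference in log2 (5p/3p), 11 of these had relatively more 3p in subclone2 and 5 relatively more 5p. The difference was at least 2-fold for 2 of the 32 (6.25%), and its median size was 0.37. Because both arms are read in the same library, this measure does not depend on the scaling of the library total.

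miR-532, in an intron of CLCN5 on the X chromosome (MIR532, chrX:50003148-50003238, plus strand), differed most. Its 5p and 3p counts were 924 and 76 in the parent and 369 and 101 in subclone2, so the 5p share was 92.4% and 78.5% (difference −1.73, −2.22 to −1.25), and 83.7% in subclone1. In CPM hsa-miR-532-3p was at 9.62 and 22.1 (log2 1.20, 0.76 to 1.65) and hsa-miR-532-5p at 117 and 80.8 (log2 −0.53), the highest and lowest ratios of the 6 kept names of that cluster. The neighbours hsa-miR-500a-3p and hsa-miR-502-3p, the most abundant, were at −0.14 and −0.12 and share 20 bases.

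miR-15b moved the other way, with 1017 and 146 counts of 5p and 3p in the parent and 440 and 29 in subclone2, a 5p share of 87.4% and 93.8% (difference 1.10, 0.51 to 1.77). miR-30e (0.85) and miR-365b (0.85) followed it, the latter through its shared 3p strand. miR-106b was the sole miRNA whose arm with more counts differed, with a 5p share of 63.97% in the parent and 49.9% in subclone2 (difference −0.83, −1.02 to −0.64). Its subclone2 counts of 5p and 3p were 661 and 663, so they show a different balance but not which arm led. For miR-181a (difference −0.74) the 5p strand has 2 genes and the 3p name 1, so its value mixes genes and arms.

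**Figure D4:**
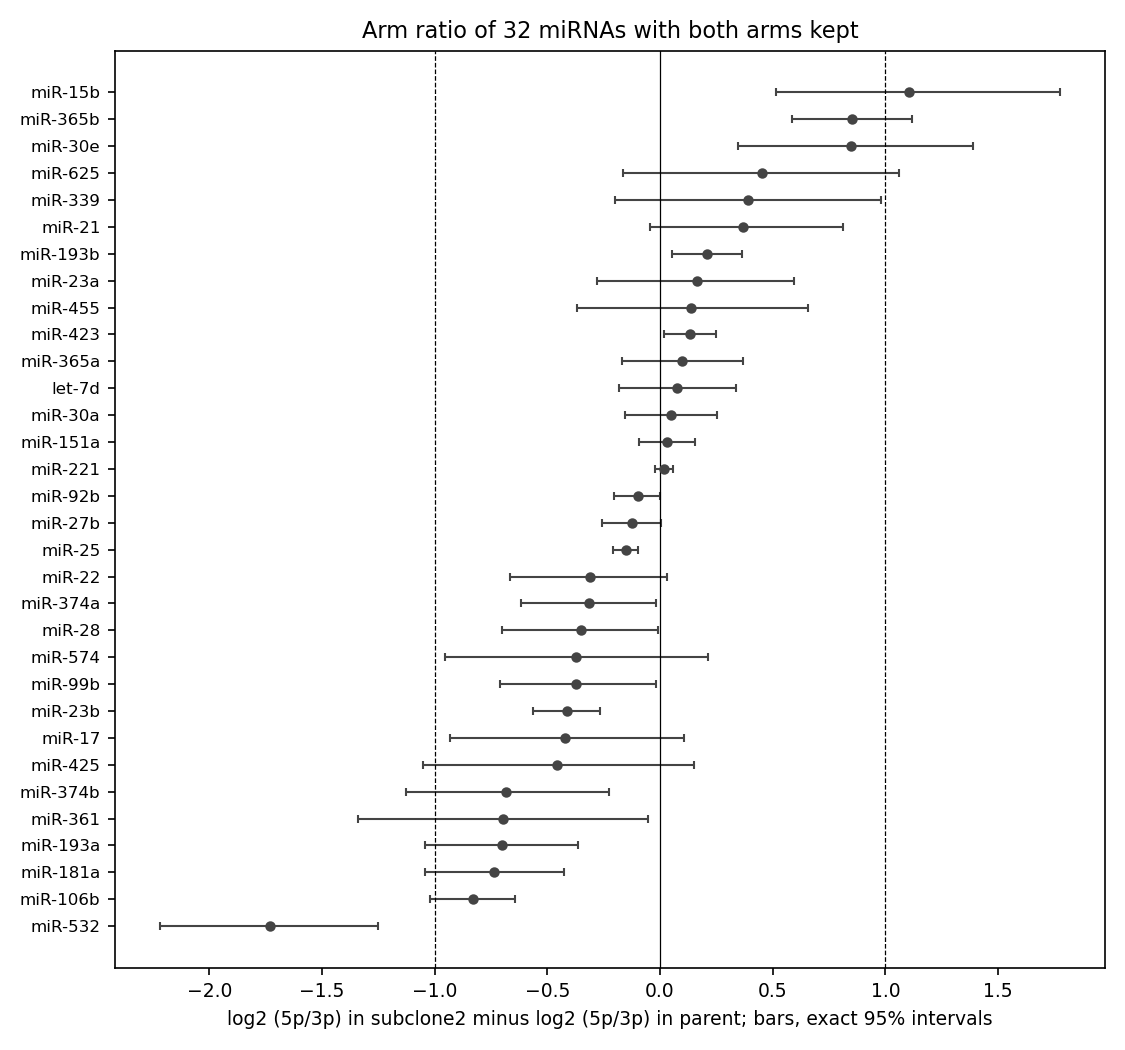
Difference between subclone2 and parent in log2 (5p/3p) for the 32 miRNAs with both arms kept, with exact 95% intervals; dashed lines mark 2-fold. miR-532 lies at −1.73 and miR-15b at 1.10, and 16 intervals exclude 0.

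Outside the family lists, 20 names lay at least 1.5-fold apart with an interval excluding 1. Over all kept names this wider limit took 50 (26.7%), 17 higher (9.09%) and 33 lower (17.6%). Besides the names given already, hsa-miR-128, a brain-enriched miRNA, was the most abundant, at 1946 CPM in the parent and 1205 CPM in subclone2 (log2 −0.69, −0.74 to −0.65). hsa-miR-7-5p, which represses EGFR, was at 448 and 287 CPM (log2 −0.64, −0.74 to −0.55). hsa-miR-1293, from an intron of LIMA1, was at 68.97 and 40.9 CPM (log2 −0.75).

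Further lower names at this limit were hsa-miR-505-5p (log2 −0.60), hsa-miR-361-5p (log2 −0.65), hsa-miR-625-3p (log2 −0.63), hsa-miR-4467 (log2 −0.60), hsa-miR-3144-5p (log2 −0.70) and hsa-miR-548x-3p (log2 −0.59). The highest of these levels in the parent was 53.8 CPM, for hsa-miR-505-5p. The higher ones were hsa-miR-574-3p (7.72 and 12.7 CPM, log2 0.72), hsa-miR-339-5p (9.24 and 14.9 CPM, log2 0.69) and hsa-miR-548a-3p (11.8 and 18.8 CPM, log2 0.68). Their intervals reached down to 0.17, 0.19 and 0.24, so these ratios are only loosely set by the counts.

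Base composition moved with the ratio. The 26 matched names with up to 40% G and C had a median of −0.35 with 0 higher and 3 lower calls, the 93 names up to 55% had −0.15 with 5 and 6, and the 37 names above that had −0.03 with 5 and 0. Across the 156 names, which share the same 2 libraries, Pearson's r was 0.24 and Spearman's rho 0.24, given as a description across miRNAs. The high end included hsa-miR-1268b (85.7 and 127 CPM, log2 0.57) and hsa-miR-1268a (69.5 and 93.5 CPM, log2 0.43), whose strands share 18 bases. The part of base composition in the calls was not tested.

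**Figure D5:**
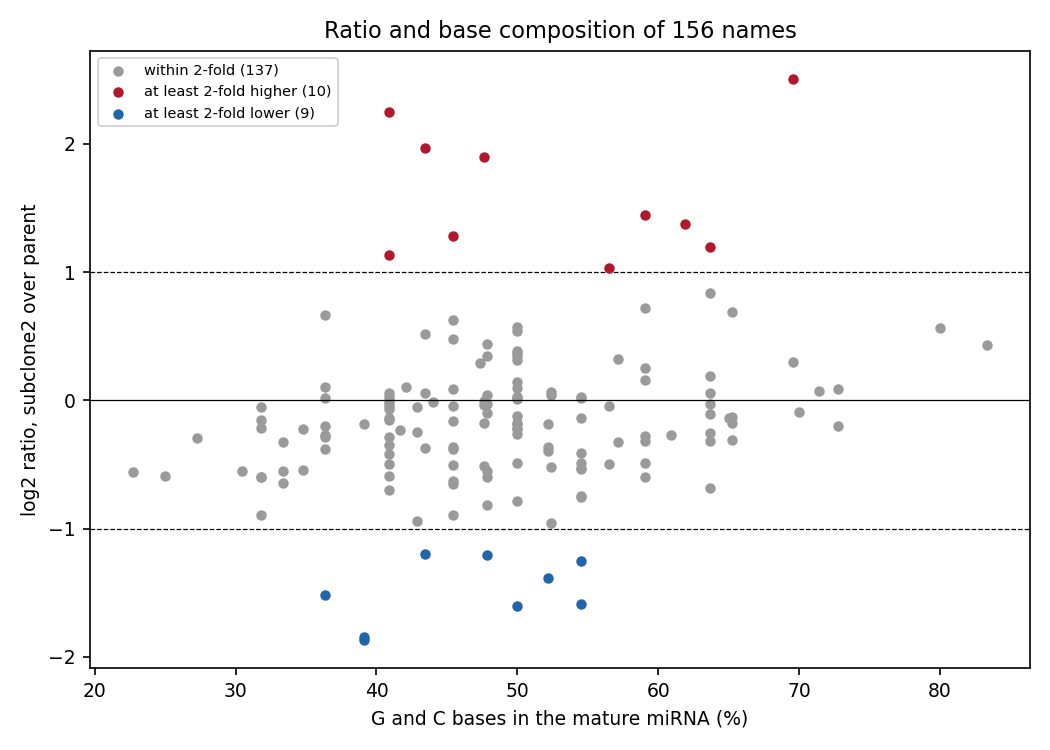
Log2 ratio of subclone2 over parent against the percentage of G and C bases for the 156 names matched to RefSeq, 1 point a name, with dashed lines at 2-fold. The lower calls lie below 55% and the higher calls reach from 40.9% to 69.6%, with r = 0.24 over all points.

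The labelled cell type was poorly marked in both libraries. The hepatocyte miRNA hsa-miR-122-5p had 53 counts in the parent and 18 in subclone2, or 6.71 and 3.94 CPM, and was not among the kept names. The other 3 hepatocyte markers listed were not detected. Markers of other cells were near 0, with 6 and 6 counts over the leukocyte list, 5 and 2 over the endothelial list, 8 and 1 over the smooth muscle and fibroblast list, 6 and 3 over the neuron list and 1 and 0 over the embryonic stem cell and placenta list. The striated muscle list had 60 and 36 counts (7.59 and 7.88 CPM), and the epithelial list held the miR-200 family given above and hsa-miR-205, which was not detected. The erythroid hsa-miR-486-5p was at 16.3 and 15.3 CPM, while hsa-miR-451a, which defines that lineage, had 0 and 1 counts.

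Detection in 1 library alone was limited to low counts. Of the 827 names detected in either library, 591 were detected in both, 152 in the parent only and 84 in subclone2 only. The highest parent-only counts were 13 for hsa-miR-219-5p, 12 for hsa-miR-671-5p, 11 for hsa-miR-4440, 8 for hsa-miR-3609 and 7 for hsa-miR-3134. In subclone2 only, after the 7 counts of hsa-miR-675-3p, hsa-miR-3648 had 6, hsa-miR-3936 and hsa-miR-4745-3p had 4 each, and hsa-miR-379-5p had 3. The kept names held 99.91% of the parent counts and 99.92% of the subclone2 counts.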

How the data were processed

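Small RNA was sequenced from cultured cells by the authors (Trizol extraction and an Illumina TruSeq Small RNA kit, per the labels). The deposited values are raw read counts per mature miRNA name, made by the authors, with no normalization. The submitters' processing notes name CASAVA 1.4 and hg19. The aligner, the counter, the mismatches allowed, the treatment of reads that match several names and the miRBase release are not given in the sources used here, and each of these can shift reads among near-identical members.

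From the counts, CPM were computed on the library total, and names averaging 10 CPM or more in parent and subclone2 were kept. For the log2 ratio 0.5 was added to both counts, and arm and seed ratios were computed from summed or paired counts. Intervals (95%) are exact Poisson or conditional binomial, and a count of 0 was taken to allow 3 counts. Exact procedures were run in Python 3.11.15 with scipy 1.17.1, and scaling factors in R 4.3.3 with edgeR 4.0.16 (TMM) and DESeq2 1.42.0 (median of ratios). The procedure was run on simulated Poisson counts, the model that the intervals assume, without spread between cultures. That run checks the computation and not the calls. Sequences and hairpin positions are from RefSeq (GRCh38.p14) by exact name, and host genes from GENCODE release 29 (GRCh38), since the tables hold none.

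Members and lists were chosen with earlier results of these data known. Named are the called names, the 10 most abundant, the extreme and most abundant members of each list, names in no list at 1.5-fold or more, the 5 largest arm differences, the neighbours of each limit, the 5 largest and the called seeds, and the 5 highest counts detected in 1 library only. hsa-miR-1268a, hsa-miR-1268b, hsa-miR-122-5p and some neighbours at a locus were named beside a result after their values were seen. Lists were matched by name stem, which leaves hsa-miR-30c-2-3p, hsa-miR-181a-2-3p, hsa-miR-125b-2-3p and hsa-miR-16-2-3p outside their families. Alternatives were other scalings, thinning, a pseudocount of 5, other minimums and other fold limits.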

Additional observations from a re-analysis of the deposited data

Results flagged for a closer look

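These names were below the minimum of 10 CPM over parent and subclone2 and so entered no comparison, but they reached it in the subclone1 library, which the comparison does not use. The largest was hsa-miR-1307-5p, at 50.7 CPM in subclone1 beside 5.95 in the parent and 9.85 in subclone2. hsa-miR-378c stood at 29.96 CPM in subclone1 beside 8.86 and 9.41, and the muscle miRNA hsa-miR-1 at 21.6 CPM beside 6.71 and 7.01. hsa-miR-4454 was at 13.4 CPM in subclone1 and 14.2 in subclone2 beside 0.633 in the parent, so that both subclones lay above the parent.

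The other subclone1 levels were 17.4 CPM for hsa-miR-1254, 13.7 for hsa-miR-324-5p, 11.8 for hsa-miR-3934, 11.5 for hsa-miR-30b-5p and 10.1 for hsa-miR-550a-3p. These 5 lay between 5.82 and 12.02 CPM in the parent and between 7.66 and 11.4 CPM in subclone2. None of the differences was tested, since there was 1 library per group.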

How the results depend on the processing

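No paired analysis was possible because there was 1 library per group. By library total 11 names were higher and 9 lower. The higher count was 3 with a minimum of 100 CPM, 35 with no minimum, 17 at 1.5-fold and 3 at 4-fold. The lower count was 2, 40, 33 and 0 under the same settings, and 5 when the whole interval had to lie beyond 2-fold. These settings change which names can be counted. The median log2 ratio of −0.15 was 0.0173 with TMM factors and 0.0205 with median-of-ratios factors. Under both of these hsa-miR-1269a became a 12th higher name (log2 1.00 and 1.01), and with the parent counts thinned hsa-miR-2682-5p was lost, leaving 10. All other calls were kept under TMM. Of 145 recomputed values of single names 117 were counted as unchanged, 27 moved, 1 lost its call and 0 reversed. A called name was counted as unchanged if it kept its call, whatever the shift in its ratio. Only uncalled names were held to their interval, and the 27 that moved were values of such names. Depth limits names near 10 CPM, where 45.7 counts in subclone2 leave wide intervals, and no library gives the spread between cultures.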

Other observations

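Some further kept names, chosen after their values were seen, are given as values. hsa-miR-33a-5p, from an intron of the sterol regulator SREBF2, was at 17.97 CPM in the parent and 17.3 CPM in subclone2 (log2 −0.05, −0.47 to 0.35), and at 30.2 CPM in subclone1. hsa-miR-31-5p was at 597 and 624 CPM (log2 0.06), and hsa-miR-224-5p and hsa-miR-452-5p, both from exons of GABRE on the X chromosome, were at log2 −0.01 and 0.02. The mirtron hsa-miR-877-5p, spliced from ABCF1, was at 34.2 and 31.1 CPM (log2 −0.13, −0.44 to 0.16). hsa-miR-185-5p was at 3985 and 4250 CPM (log2 0.09) and hsa-miR-140-3p, from an intron of WWP2, at 7442 and 9326 CPM (log2 0.33).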
